A study of Homo sapiens with 12 samples.

Results

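A set of 10 genes, of the 55242 listed in the count tables once rRNA genes were removed, was followed across GFP- and NRF2-expressing Hs 578T cells with and without cystine (Cyss). OSGIN1, AFP, POPDC3, STXBP6, RGS17, IGF2BP3, POLR3G, FSD1L and TRIM16L were chosen by their counts in these same libraries, which were lower without Cyss in GFP cells and higher with NRF2 in at least 1 medium. TRIM16 was added as the longer copy of TRIM16L, and not for its values, although earlier results of these data were known. It shares sequence with TRIM16L, so its p-values are not independent of the choice either. All 10 symbols were found in every table. Because the choice used these counts, the GFP response to Cyss deprivation and the effect of NRF2 in either medium are given for the 9 chosen genes as a description, without p-values. The response of NRF2 cells to Cyss deprivation is given with p-values. For the 9 genes these are not independent of the choice, which used the same NRF2 libraries.

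Hs 578T is a triple-negative breast cancer (TNBC) line of the mesenchymal stem-like subtype. The cells, all of this single line, were transduced with lentiviral vectors carrying GFP, as control, or full-length NRF2, which KEAP1 can still bind. The labels do not say how many transductions were made per vector. Cells of both kinds were then kept for 8 h either with 0.8 mM cystine or without Cyss, in a methionine- and glutamine-supplemented medium that held fetal serum in all 4 groups. Each group was represented by 3 libraries. The labels do not say whether these came from separate cultures, so the p-values measure the spread between these libraries, which may be technical.

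NRF2, encoded by NFE2L2, is a transcription factor that the adaptor KEAP1 marks for degradation in unstressed cells. When KEAP1 is modified at its cysteines, NRF2 accumulates, binds antioxidant response elements and raises enzymes of thiol, quinone and iron metabolism. Cystine enters the cell through SLC7A11 and is reduced to cysteine, the limiting part of glutathione. The genes described here range from a documented NRF2 target, OSGIN1, to genes of G protein signalling, mRNA binding, membrane fusion and RNA polymerase III.

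The 12 libraries held between 27334061 and 44734611 reads on genes, with a median of 32974256. In the first principal component, GFP without Cyss replicate 3 stood at 2.82, whereas the other GFP libraries lay between -14.5 and -8.05. Without that library no log2 fold change (log2FC) of the 10 genes in GFP cells moved by more than 1.5 times. Leaving out GFP with Cyss replicate 1 did move RGS17 there from -0.41 to -0.24 and FSD1L from -0.36 to -0.19. NRF2 without Cyss replicate 1 had the highest share of reads not on genes, 17.07%. In the second component it stood at -6.08, beside 1.4 and 1.84 in its group. NFE2L2 counts matched the labels, with means of 3786 ± 108 (SD, n = 3) in GFP cells and 6696 ± 198 in NRF2 cells with Cyss, and of 4590 ± 96.9 and 7940 ± 614 without Cyss. The mesenchymal genes fixed as a check were all present, led by FN1. Of 8 epithelial and receptor genes, 4 or 5 had means under 10 normalized counts in each group, although the submitters label the line as an epithelial tumour line. The others were not all low. ERBB2 had means between 1216 and 1337, CLDN4 between 13.6 and 17.9 and ESR1 between 8.87 and 11.7. PGR had means of 4.71 with Cyss and 1.055 without in GFP cells, and of 20.7 and 17.3 in NRF2 cells. The genes of leukocytes and endothelium had 3 of 4 members under 10 in every group. In such bulk RNA, fewer cells of a kind and less RNA per cell cannot be told apart.

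**Figure D1:**
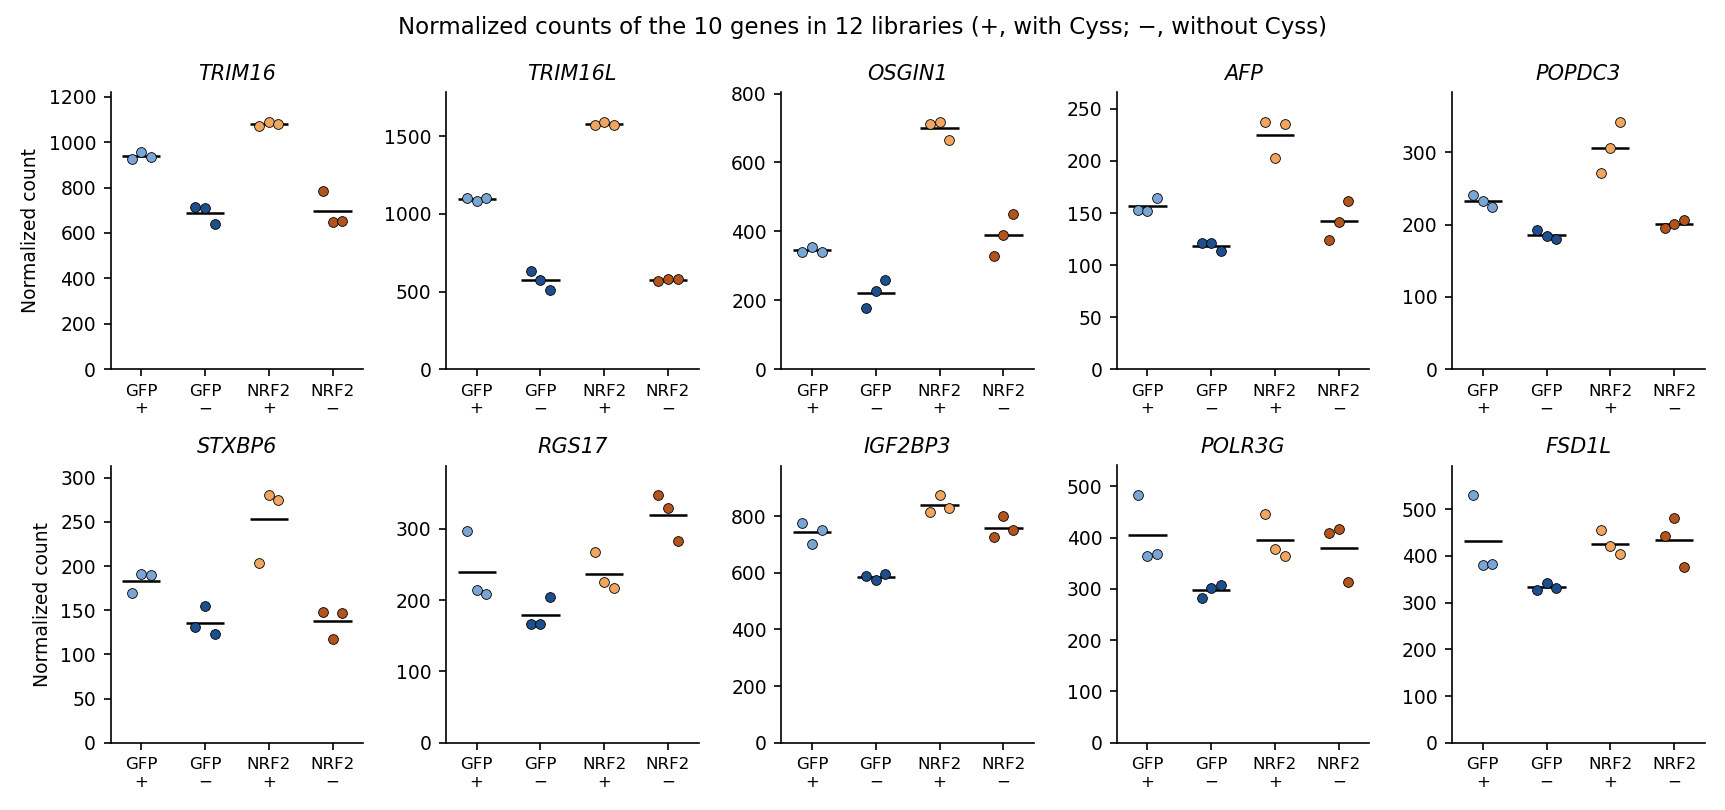
Normalized counts (y axis, from 0) of the 10 genes in the 12 libraries, by group (x axis; + with Cyss, − without Cyss), each point a library and each bar the mean of 3. TRIM16, TRIM16L, OSGIN1, AFP, POPDC3 and STXBP6 peak in NRF2 cells with Cyss, while the highest mean of RGS17 is that of NRF2 cells without Cyss, 320.1.

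The mean levels in NRF2 cells, set against those of GFP cells in the same medium, differed within the list. TRIM16, TRIM16L and STXBP6 were higher with NRF2 in medium with Cyss, and without Cyss stood at 101% of the GFP level in NRF2 cells, so that the data went against calling them restored by NRF2. OSGIN1 stood at 203% of the GFP level with Cyss and 176% without, AFP at 144 and 120%, and POPDC3 at 132 and 108%. RGS17, POLR3G and FSD1L were close to the GFP level with Cyss and at 179, 128 and 130% of it without Cyss, and IGF2BP3 stood at 113 and 129%. The levels of NRF2 cells without Cyss did not overlap those of GFP cells with Cyss, and lay below them, for TRIM16, TRIM16L, POPDC3 and STXBP6, that is for 4 of 10 genes, against 20.9% of all genes whose mean reached 10 normalized counts in either group. For the other 6 genes these ranges overlapped.

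TRIM16 encodes a tripartite-motif protein of the E3 ubiquitin ligase kind that is known to take part in KEAP1 and NRF2 signalling and in autophagy of damaged lysosomes. The gene is found at chr17:15531274-15587625 (GRCh37), on the minus strand. TRIM16L, a partial copy of TRIM16 that keeps its C-terminal end, lies on the plus strand of chr17:18601311-18639431, and GENCODE 44 annotates it as non-coding RNA. The copies share sequence. Of the 75-base windows in TRIM16L exons, 26.9% occur letter for letter in TRIM16 exons, and over the 581 aligned bases of the longest coding exon of TRIM16 they were 98.3% identical. A stretch of 90 bases, the one with most differences, is shown because it makes visible how few letters tell reads of these genes apart, with the 4 differing bases in capitals.
TRIM16, chr17:15532081-15532170, minus strand: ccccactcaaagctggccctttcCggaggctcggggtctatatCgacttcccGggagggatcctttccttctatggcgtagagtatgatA
TRIM16L, chr17:18638532-18638621, plus strand: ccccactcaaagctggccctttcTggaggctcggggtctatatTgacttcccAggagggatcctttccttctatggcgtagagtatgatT
Reads without a unique place, 6.078 to 6.813% per library, were not counted, so the level of each copy is uncertain. A further 28.7% of TRIM16 exon bases overlap exons of other annotated genes, and counting disregarded strand.

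TRIM16L had normalized counts of 1104, 1086 and 1103 in GFP cells with Cyss and of 635, 572 and 513 without. In NRF2 cells it had 1571, 1594 and 1576 with Cyss and 571, 578 and 581 without. Every library with Cyss was thus above every library without Cyss, and the NRF2 libraries with Cyss were above all others, whereas the NRF2 libraries without Cyss lay inside the GFP range. The log2FC without against with Cyss was -0.93 (SE 0.0664) in GFP cells, and that of NRF2 against GFP was 0.54 (SE 0.0428) with Cyss and 0.01 (SE 0.0755) without. In NRF2 cells TRIM16L fell by 1.45 on the log2 scale without Cyss (SE 0.0532, edgeR quasi-likelihood adjusted p = 1.92e-10), to 36.5% of its level, the deepest fall of the 10 genes in that comparison.

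TRIM16 had normalized counts of 928, 955 and 936 in GFP cells with Cyss and of 713, 710 and 639 without. In NRF2 cells the values were 1070, 1090 and 1082 with Cyss and 783, 650 and 654 without. The order of the groups was that of TRIM16L, with smaller distances. The copies share sequence and TRIM16L was chosen by its counts, so the p-values given here for TRIM16 are not independent of that choice. TRIM16 fell without Cyss in GFP cells (log2FC -0.45, SE 0.0557, edgeR adjusted p = 0.000385) and in NRF2 cells (log2FC -0.63, SE 0.0747, adjusted p = 2.15e-05). With Cyss, the log2FC of NRF2 against GFP was 0.21 (SE 0.0467, adjusted p = 0.0173), under the fold threshold of 0.32, and without Cyss it was 0.02 (SE 0.0843, adjusted p = 0.906). The response of NRF2 cells minus that of GFP cells, tested as an interaction on all libraries, was -0.19 (SE 0.0963, adjusted p = 0.245). Without NRF2 without Cyss replicate 1, the library with the highest TRIM16 value of its group, it was -0.29 (adjusted p = 0.0247), past the threshold of 0.1.

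The raw reads of the pair show the unequal change within a library, with no scaling involved. TRIM16L had 1.14 to 1.19 reads for each read of TRIM16 in GFP cells with Cyss and 0.803 to 0.891 without. In NRF2 cells the ratio was 1.46 to 1.47 with Cyss and 0.728 to 0.89 without. The ratio was therefore above 1 in every library with Cyss and below 1 in every library without.

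**Figure D2:**
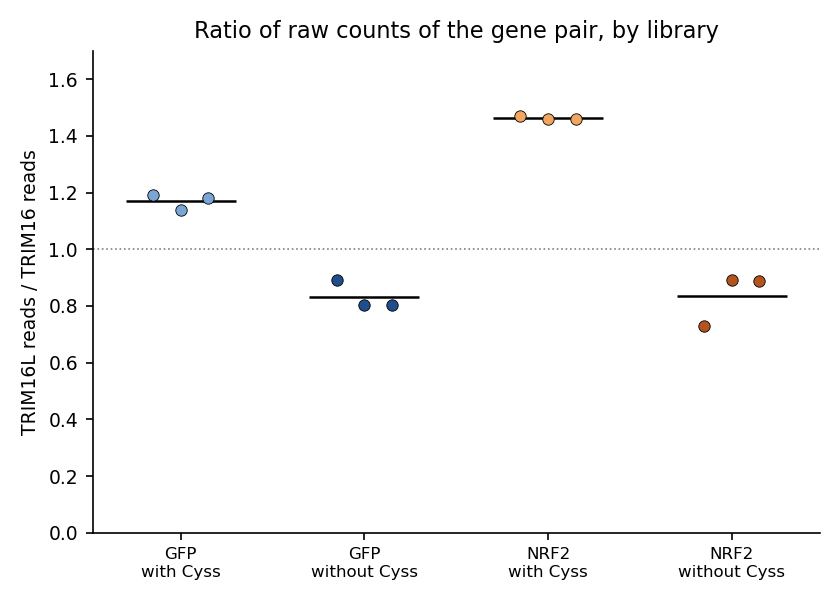
Reads of TRIM16L divided by reads of TRIM16 (y axis, from 0; the dotted line marks equal reads) in the 3 libraries of each group, with the mean as a bar. The 6 libraries with Cyss lie between 1.14 and 1.47, and the 6 without between 0.728 and 0.891.

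OSGIN1, the oxidative stress induced growth inhibitor 1, is a known NRF2 target that has been tied to p53 and to autophagy. In GRCh37 it occupies chr16:83964916-83999937 on the plus strand, and 8.22% of its exon bases overlap MLYCD. The 250 bases before its start site are shown for the run in capitals, GCTGACTCA, at -99 from the start, in which a form of the antioxidant response element core read on the minus strand (TGAGNNNGC) overlaps an AP-1 site (TGANTCA).
OSGIN1, chr16:83952990-83953239 (GRCh38.p14, RefSeq), plus strand: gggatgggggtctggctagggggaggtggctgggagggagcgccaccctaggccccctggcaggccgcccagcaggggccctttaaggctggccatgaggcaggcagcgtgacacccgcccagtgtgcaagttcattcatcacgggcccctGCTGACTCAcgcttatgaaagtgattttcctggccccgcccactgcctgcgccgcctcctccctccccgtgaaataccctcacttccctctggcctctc

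The normalized counts of OSGIN1 in GFP cells were 340, 354 and 340 with Cyss and 179, 226 and 260 without. In NRF2 cells they were 712, 718 and 666 with Cyss and 330, 389 and 451 without. The NRF2 libraries lay above the GFP libraries of the same medium without overlap, and those of NRF2 cells without Cyss spanned the whole range of GFP cells with Cyss. The log2FC of NRF2 against GFP was 1.03 (SE 0.0608) with Cyss and 0.82 (SE 0.135) without, the highest with Cyss among the 10 genes. Cyss deprivation gave a log2FC of -0.64 (SE 0.106) in GFP cells. It gave -0.84 in NRF2 cells (SE 0.0879, edgeR adjusted p = 6.73e-06), so that OSGIN1 fell there to 55.8% of its level while remaining at 113% of the GFP level with Cyss.

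AFP, alpha-fetoprotein, is a plasma protein of the yolk sac and fetal liver that is silent in most adult tissues. The gene spans chr4:74296855-74321891 on the plus strand, with no other annotated exon over its own. In GFP cells AFP had 153, 152 and 164 normalized counts with Cyss and 121, 121 and 114 without. In NRF2 cells it had 238, 203 and 235 with Cyss and 124, 141 and 161 without. All NRF2 libraries were above the GFP libraries of the same medium, the nearest without Cyss by 124 against 121. The log2FC was -0.39 (SE 0.0957) for Cyss deprivation in GFP cells, 0.54 (SE 0.0913) for NRF2 with Cyss and 0.26 (SE 0.118) without. In NRF2 cells AFP fell by 0.66 on the log2 scale without Cyss (SE 0.111, edgeR adjusted p = 0.000599). Beside AFP, the 13 hepatocyte genes were at or near 0. Their summed normalized count was between 12.1 and 23.1 in every library, 12 or 13 of them had means under 10, and ALB, the neighbour of AFP in the same gene family, had group means between 0.542 and 1.47.

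POPDC3 encodes a Popeye domain protein of the plasma membrane that binds cyclic AMP and is best known from heart and skeletal muscle. Its exons lie within chr6:105605775-105627889 on the minus strand. The antisense gene BVES-AS1 covers 36.8% of its exon bases, and without strand the reads of both cannot be told apart there. The counting mode of the methods leaves reads that lie on exons of both genes out as ambiguous, so POPDC3 may be undercounted. Its normalized counts were 241, 233 and 225 in GFP cells with Cyss and 193, 185 and 180 without. In NRF2 cells they were 272, 305 and 342 with Cyss and 195, 201 and 206 without. The highest GFP library without Cyss, at 193, was just under the lowest NRF2 library without Cyss, at 195. The log2FC without against with Cyss in GFP cells, -0.32 (SE 0.0796), was the smallest in size of the 10 genes. NRF2 gave 0.41 (SE 0.0865) with Cyss and 0.11 (SE 0.09) without. POPDC3 fell in NRF2 cells without Cyss (log2FC -0.61, SE 0.095, edgeR adjusted p = 0.000296).

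STXBP6, or amisyn, binds syntaxin and holds back SNARE-driven membrane fusion. It lies on the minus strand of chr14:25278660-25519353, and 5.43% of its exon bases overlap an antisense RNA gene. Its normalized counts were 169, 191 and 190 in GFP cells with Cyss and 131, 155 and 123 without. In NRF2 cells they were 204, 280 and 275 with Cyss and 148, 118 and 147 without. NRF2 and GFP libraries overlapped without Cyss and were apart with Cyss, where NRF2 replicate 1 was the lowest of its group. The log2FC was -0.43 (SE 0.105) for Cyss deprivation in GFP cells, 0.48 (SE 0.108) for NRF2 with Cyss and 0.02 (SE 0.131) without. STXBP6 fell by 0.88 on the log2 scale in NRF2 cells without Cyss (SE 0.131, edgeR adjusted p = 0.000196), to 54.5% of its level.

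RGS17 encodes a regulator of G protein signalling of the RZ subfamily, which speeds GTP hydrolysis by inhibitory G protein alpha subunits. The RGS17 gene covers chr6:153325594-153452417 on the minus strand, with no other annotated exon over its own. In GFP cells RGS17 had 297, 214 and 209 normalized counts with Cyss and 166, 166 and 205 without. In NRF2 cells it had 268, 225 and 218 with Cyss and 347, 329 and 284 without. The GFP groups were separated only by 209 against 205, and in NRF2 cells the order was turned, with all libraries without Cyss above those with Cyss. RGS17 was the gene of the list that rose in NRF2 cells without Cyss (log2FC 0.44, SE 0.106, edgeR adjusted p = 0.00782). Its high counts in those same libraries served to choose it, so this p-value is no independent test. The log2FC in GFP cells was -0.41 (SE 0.138), and -0.24 without GFP with Cyss replicate 1. That of NRF2 against GFP was 0.00 (SE 0.122) with Cyss and 0.84 (SE 0.116) without.

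IGF2BP3 encodes an oncofetal RNA-binding protein that stabilises its target mRNAs. Its place is chr7:23349828-23510110 on the minus strand, and 17.8% of its exon bases overlap MALSU1 on the other strand. Its promoter is shown for a pair of E-box motifs (CACGTG, in capitals), at -174 and -146 from the start.
IGF2BP3, chr7:23470492-23470741 (GRCh38.p14, RefSeq), minus strand: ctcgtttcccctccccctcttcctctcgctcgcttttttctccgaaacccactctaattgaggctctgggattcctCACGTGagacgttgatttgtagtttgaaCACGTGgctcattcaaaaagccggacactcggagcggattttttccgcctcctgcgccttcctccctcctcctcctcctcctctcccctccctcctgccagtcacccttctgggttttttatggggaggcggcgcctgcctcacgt

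IGF2BP3 had normalized counts of 776, 704 and 750 in GFP cells with Cyss and of 588, 575 and 596 without. In NRF2 cells the counts were 814, 874 and 830 with Cyss and 727, 800 and 750 without. The GFP libraries without Cyss stood apart below all others, and the ranges of NRF2 cells without Cyss and GFP cells with Cyss overlapped. The log2FC was -0.34 (SE 0.0574) for Cyss deprivation in GFP cells, 0.19 (SE 0.0554) for NRF2 with Cyss and 0.37 (SE 0.0617) without. In NRF2 cells the response to Cyss deprivation did not pass the thresholds (log2FC -0.14, SE 0.061, edgeR adjusted p = 0.112), although the libraries of these groups did not overlap.

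POLR3G encodes a subunit of RNA polymerase III, the enzyme that makes tRNA and other short RNAs, in the form of the enzyme best known from stem and tumour cells. It lies on the plus strand of chr5:89767565-89810374, and 6.46% of its exon bases overlap MBLAC2 on the other strand. GFP cells had 483, 364 and 368 normalized counts with Cyss and 283, 301 and 307 without. NRF2 cells had 445, 378 and 364 with Cyss and 409, 417 and 313 without. The ranges of NRF2 cells in both media overlapped that of GFP cells with Cyss, and the lowest NRF2 library without Cyss, at 313, was near the highest GFP library without Cyss, at 307. The log2FC without against with Cyss was -0.44 (SE 0.105) in GFP cells, or -0.30 without GFP with Cyss replicate 1. It was -0.05 in NRF2 cells (SE 0.112, edgeR adjusted p = 0.775). NRF2 against GFP gave -0.02 (SE 0.102) with Cyss and 0.36 (SE 0.112) without.

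FSD1L encodes a protein with fibronectin type III and SPRY domains, related to the microtubule-binding FSD1. It lies on the plus strand of chr9:108210077-108314714, with no other annotated exon over its own. In GFP cells its normalized counts were 530, 380 and 383 with Cyss and 327, 342 and 332 without. In NRF2 cells they were 455, 420 and 404 with Cyss and 442, 482 and 376 without. GFP with Cyss replicate 1 was far above the other libraries of its group for FSD1L, RGS17 and POLR3G alike. The log2FC in GFP cells was -0.36 (SE 0.114) with that library and -0.19 without it. The response of NRF2 cells was 0.03 (SE 0.0931, edgeR adjusted p = 0.857), and NRF2 against GFP gave 0.00 (SE 0.105) with Cyss and 0.38 (SE 0.0954) without.

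Between genes, levels can be compared per length only. The lengths used include exon bases that overlap other genes, where reads may not have been counted. In GFP cells with Cyss the normalized count per kb of GENCODE exon was highest for TRIM16L at 254 and TRIM16 at 167. POPDC3 followed at 102, POLR3G at 101, IGF2BP3 at 87.1, OSGIN1 at 62.0, AFP at 48.9, FSD1L at 43.6, RGS17 at 30.3 and STXBP6 at 22.6. The value of TRIM16L rests on the longer of 2 entries in GENCODE. Over the exons of the other, a transcribed pseudogene of 1176 exon bases, it would be 934. Per kb, OSGIN1 in NRF2 cells with Cyss reached 126, above the mean of POPDC3 in GFP cells.

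The response of NRF2 cells to Cyss deprivation was not named as a comparison in the choice of the genes, but the choice drew on libraries of all 4 groups. It shares the NRF2 libraries with comparisons that were used, so a gene picked for high NRF2 values in 1 medium was more likely to differ there, and the result is not independent of the choice. A differentially expressed gene (DEG) had an adjusted p under 0.1 in edgeR's quasi-likelihood test, over all genes tested, and a log2FC above 0.32 in size. TRIM16, TRIM16L, OSGIN1, AFP, POPDC3 and STXBP6 fell, which makes 6 of 10, where 5.14% of the 17266 genes tested were DEGs in that direction. RGS17 rose, 1 of 10 against 6.81%, and IGF2BP3, POLR3G and FSD1L did not pass. The median log2FC of the 10 genes was -0.62, beside -0.01 over all genes. By the ranges of the libraries, 7 of 10 genes lay below with no overlap, against 18.6% of all genes.

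For the comparisons that chose the genes, the counts past the same limits only describe the choice. They are no tests of the genes, and nothing is read from them. In GFP cells without against with Cyss, 8 of 10 genes were past the limits in the downward direction, as were 0.533% of 17452 genes, and RGS17 and FSD1L were outside the limit on adjusted p. The count was 5 without GFP with Cyss replicate 1 (POPDC3, IGF2BP3 and POLR3G dropping out) and 5 without GFP without Cyss replicate 2 (AFP, POPDC3 and POLR3G dropping out). DESeq2 gave 8 again, with RGS17 and FSD1L inside and AFP and POPDC3 outside. All 10 genes had GFP ranges that did not overlap, as had 13.1% of all genes in that direction. With NRF2, TRIM16L, OSGIN1, AFP, POPDC3 and STXBP6 were past the limits in the upward direction in medium with Cyss, 5 of 10 beside 1.36% of 17449 genes, or 3 of 10 without NRF2 with Cyss replicate 3. OSGIN1, RGS17, IGF2BP3, POLR3G and FSD1L were in medium without Cyss, 5 of 10 beside 5.98% of 17297 genes, or 3 of 10 without NRF2 without Cyss replicate 2. OSGIN1 was in both. For the interaction, TRIM16L and RGS17 were past the limit, 2 of 10 beside 15.1% of 17674 genes. Ranges of NRF2 and GFP libraries were apart, with NRF2 above, for 7 of 10 genes with Cyss (10.7% of all genes) and for 7 of 10 without (18.1% of all genes).

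**Figure D3:**
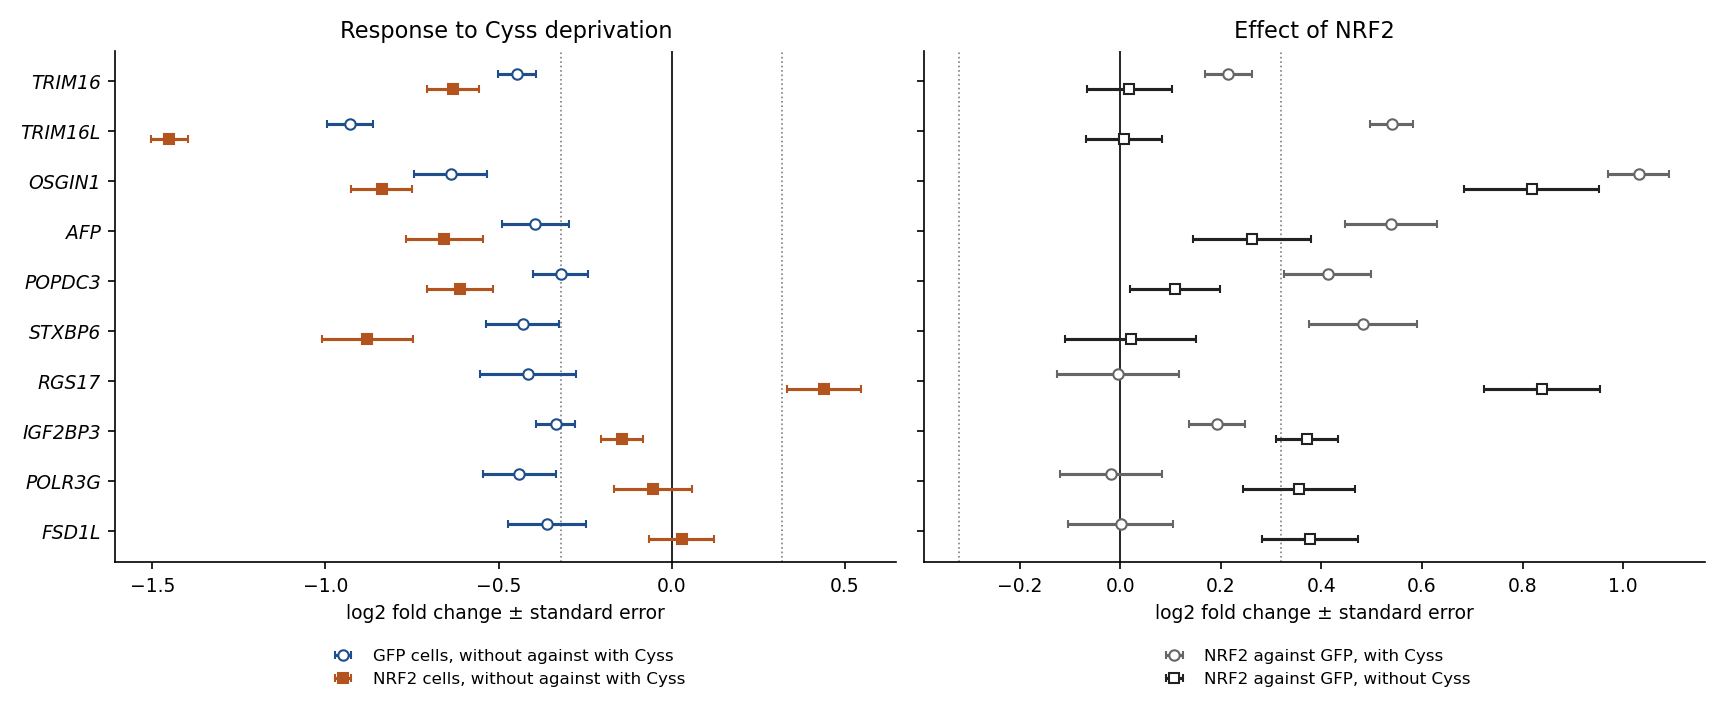
log2FC with its standard error (x axis) of the 10 genes (y axis), on the left without against with Cyss in GFP cells (open circles) and NRF2 cells (filled squares), on the right NRF2 against GFP cells with Cyss (circles) and without Cyss (squares). Dotted lines mark 0.32 in either direction, and open symbols are comparisons used to choose the genes; RGS17 is on opposite sides of 0 in the cells on the left.

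The closest relatives of the 10 genes were set beside them, 17 genes of the same families or, for some syntaxin-binding genes, of a shared symbol root only. Of these, 13 passed the filter on low counts in GFP cells and 12 in NRF2 cells. No relative was a DEG in GFP cells without Cyss by edgeR or by DESeq2, and 4 of 13 had an unadjusted p under 0.05, as had 18.1% of all genes, with a median log2FC of -0.08 (0.00 over all genes). With NRF2 in medium with Cyss no relative was a DEG by either tool, 1 of 13 had an unadjusted p under 0.05 (19% of all genes), and the median was -0.01, where 0.201% of all genes were DEGs in the downward direction. OSGIN2, the homologue of OSGIN1, kept means between 2473 and 2618 in the 4 groups, and its log2FC with NRF2 was -0.06 (SE 0.0482) with Cyss. FSD1, POLR3GL and BVES, the relatives of FSD1L, POLR3G and POPDC3, were not DEGs in any comparison. BVES was nevertheless lower without Cyss, with no overlap, in GFP cells (log2FC -0.26, edgeR adjusted p = 0.0412) and in NRF2 cells (-0.20, edgeR adjusted p = 0.0323). POLR3GL was lower with NRF2 in medium without Cyss (log2FC -0.22, edgeR adjusted p = 0.0453). These values were under the fold threshold alone.

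RGS20 and IGF2BP2 were the relatives that rose in NRF2 cells without Cyss, 2 of 12 tested beside 6.81% of all genes. RGS20, of the same RZ subfamily as RGS17, had 389, 389 and 388 normalized counts in NRF2 cells with Cyss and 472, 559 and 763 without (log2FC 0.62, SE 0.125, edgeR adjusted p = 0.00227). In GFP cells RGS20 had 457, 432 and 457 with Cyss and 366, 429 and 513 without, with overlapping ranges. RGS20 was also a DEG for NRF2 against GFP without Cyss (log2FC 0.46, SE 0.151, edgeR adjusted p = 0.0504), where the ranges of the groups overlapped and DESeq2 made no such call. That call was also lost without GFP without Cyss replicate 1 or 2, and without NRF2 without Cyss replicate 3. IGF2BP2, the mRNA-binding relative of IGF2BP3, had 1350, 1297 and 1240 normalized counts in NRF2 cells with Cyss and 1897, 1748 and 1944 without (log2FC 0.53, SE 0.0565, edgeR adjusted p = 8.27e-06). In GFP cells IGF2BP2 had 1346, 1287 and 1356 with Cyss and 1482, 1506 and 1569 without (log2FC 0.20, under the fold threshold). The libraries of IGF2BP2 thus lay higher without Cyss in both cells and those of IGF2BP3 lower, without overlap.

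**Figure D4:**
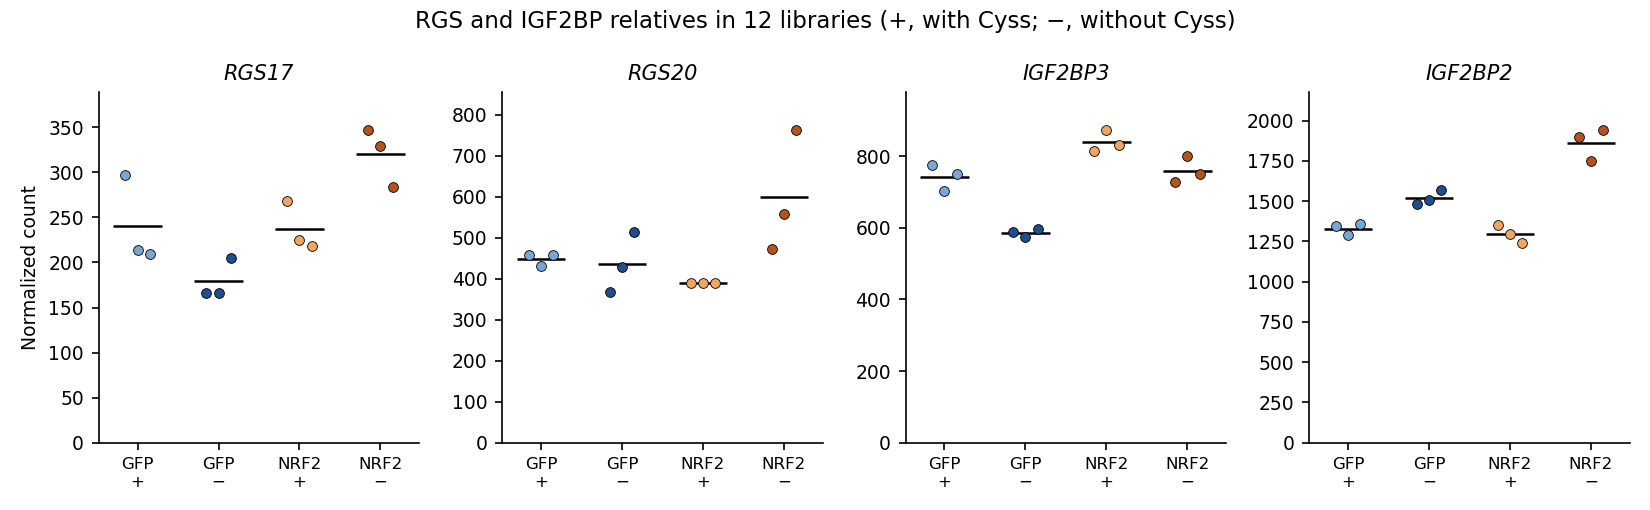
Normalized counts (y axis, from 0) of RGS17 and RGS20 and of IGF2BP3 and IGF2BP2 in the 12 libraries, by group (x axis; + with Cyss, − without Cyss), with the mean of 3 as a bar. RGS17, RGS20 and IGF2BP2 have their highest mean in NRF2 cells without Cyss, and IGF2BP3 in NRF2 cells with Cyss.

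Other NRF2 targets, 32 named from general knowledge with the 10 genes left out, gave the setting of the pathway, and 31 passed the filter. In GFP cells without Cyss 8 fell and 1 rose (0.533% of all genes fell and 1.57% rose), with a median log2FC of -0.19. AKR1B10, an aldo-keto reductase, fell by 0.76 on the log2 scale (SE 0.128, edgeR adjusted p = 0.00432), and TXNRD1, the cytosolic thioredoxin reductase, fell by 0.61 (SE 0.0479, edgeR adjusted p = 3.84e-06). HMOX1, heme oxygenase 1, was the target that rose (log2FC 0.44, SE 0.0509, edgeR adjusted p = 0.000209). In NRF2 cells without Cyss 14 fell and none rose by edgeR or by DESeq2, although 1 had a positive log2FC at an unadjusted p under 0.05, and the median was -0.30. Of all genes, 5.14% fell and 6.81% rose in that comparison. AKR1B10 had a log2FC of -1.29 there (SE 0.0928, edgeR adjusted p = 1.41e-07) and ABCC2, an export pump for conjugates, fell by 0.95 (SE 0.162, edgeR adjusted p = 0.000654). The falls of TRIM16L and OSGIN1 in NRF2 cells, by 1.45 and 0.84, stood beside log2FCs from -1.29 to -0.33 in the 14 targets.

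With NRF2 in medium with Cyss 12 of the 31 targets rose and none fell by edgeR or by DESeq2, with no negative log2FC at an unadjusted p under 0.05, and the median was 0.26. Of all genes, 1.36% rose there and 0.201% fell. Without Cyss 12 rose, beside 5.98% of all genes, and 1 fell, CBR3, a carbonyl reductase (log2FC -0.43, SE 0.0964, edgeR adjusted p = 0.00918, beside 4.09% of all genes that were lower). AKR1C2 and AKR1B10 led both lists. The log2FC of AKR1C2, which shares sequence with AKR1C1 and is uncertain for that reason, was 2.19 (SE 0.146, edgeR adjusted p = 8.12e-08) with Cyss and 1.45 (SE 0.18, edgeR adjusted p = 0.000423) without. AKR1B10 had 1.44 (SE 0.088, edgeR adjusted p = 2.7e-08) and 0.89 (SE 0.13, edgeR adjusted p = 0.00097). The value of OSGIN1, 1.03 with Cyss, lay below those of AKR1C2, AKR1B10 and AKR1C1 (log2FC 1.33, SE 0.0404).

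**Figure D5:**
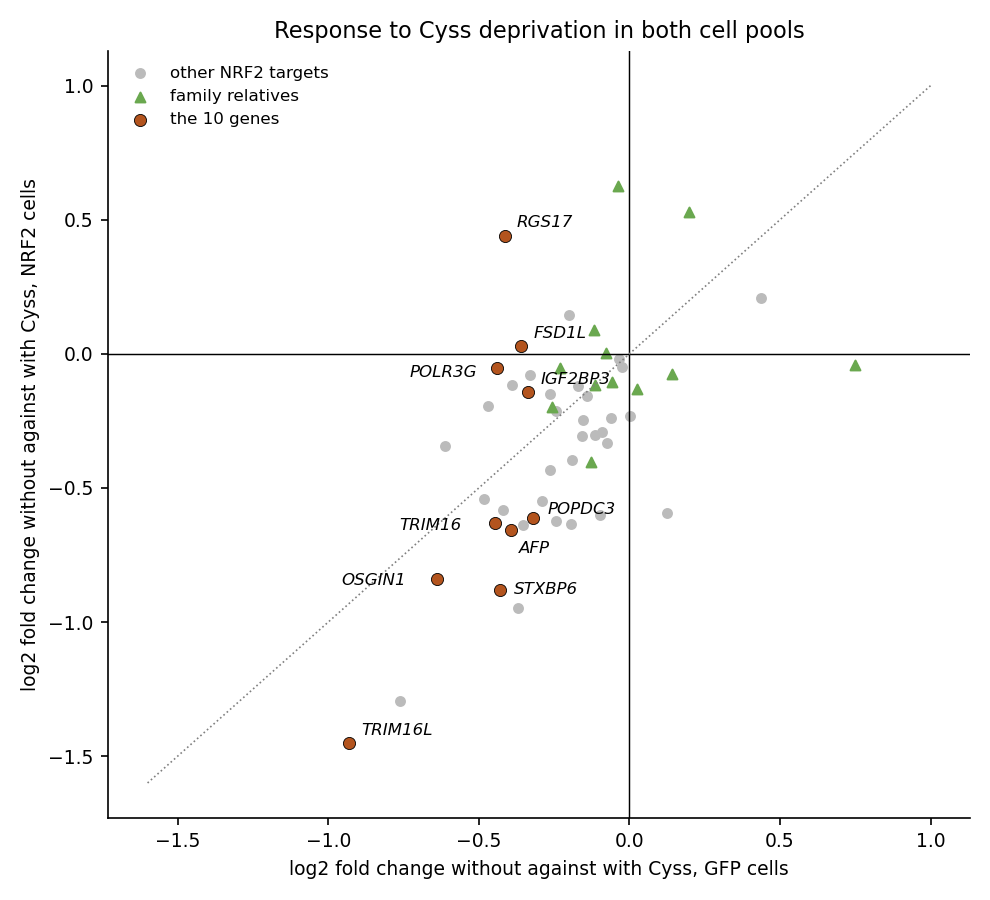
log2FC without against with Cyss in GFP cells (x axis) and in NRF2 cells (y axis) for the 10 genes (named circles), their family relatives (triangles) and other NRF2 targets (grey), with equal responses on the dotted line. TRIM16L lies lowest at -0.93 and -1.45, and RGS17 is above 0 in NRF2 cells, at 0.44, and below 0 in GFP cells, at -0.41.

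The other subunits of RNA polymerase III, 16 in number, were set beside POLR3G. None of 16 was a DEG in GFP cells without Cyss or for NRF2 with Cyss, by edgeR or DESeq2, and 1 had an unadjusted p under 0.05 in each, beside 18.1 and 19% of all genes. In NRF2 cells without Cyss 5 of 16 had a positive log2FC and 0 a negative one at an unadjusted p under 0.05, beside 34.1% of all genes in either direction. For NRF2 without Cyss these counts were 2 and 1, beside 34.5%. POLR3A, the catalytic subunit, singled out after its values were seen, was the subunit that rose in NRF2 cells without Cyss (log2FC 0.44, SE 0.0621, edgeR adjusted p = 0.000134) and with NRF2 in medium without Cyss (log2FC 0.34, SE 0.0859, edgeR adjusted p = 0.0156). A count of 1 of 16 is close to the share of all genes that rose, 6.81 and 5.98%, so nothing is read from it about the enzyme. POLR3G itself had -0.05 and 0.36 in these comparisons.

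The genes most alike to each of the 10 over the 12 libraries were found by Pearson's r of log2 normalized counts, among 13527 genes with a mean of at least 50. The libraries share their groups, and single libraries also weigh on r, so these values describe a common pattern over the 12 libraries and carry no test. GFP with Cyss replicate 1, for example, stood above the rest of its group by 0.40 for POLR3G, 0.47 for FSD1L and 0.49 for RGS17 on the log2 scale. A high r among such genes is therefore not a shared response to Cyss or NRF2 alone. TRIM16L was nearest to PIR (r = 0.99), an iron-binding nuclear protein, and to SLC2A10 (0.99) and NQO1 (0.98). TRIM16 was nearest to KIAA1522 (0.98), SLC2A10 (0.97) and ALDH3A2 (0.97). OSGIN1 was nearest to TXNRD1, LRP8 and AKR1B10, each at 0.95. For the others the nearest were KCNE4 for AFP (0.97), SLC17A5 for POPDC3 (0.97), SPATS2 for STXBP6 (0.95), LIMS1 for RGS17 (0.98), TNIP3 for IGF2BP3 (0.97), TMEM168 for POLR3G (0.98) and NEGR1 for FSD1L (0.99). Within the list, POLR3G and FSD1L had r = 0.96 and TRIM16 and TRIM16L 0.97, whereas RGS17 and TRIM16L had -0.03.

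RefSeq (GRCh38.p14) gave promoters for 8 of the 10 genes, in 11 windows of 300 bases that run from 250 bases before to 50 after a start site. These letters were searched on both strands, and a match is a description only. The antioxidant response element core in its form TGACNNNGC was in none of the 11 windows and in 13.3% of 35116 windows of all genes. The form TGAGNNNGC, searched after the OSGIN1 sequence had been seen, was in 4 of 11, belonging to OSGIN1, POPDC3 and STXBP6, and in 18.3% of all. The AP-1 letters TGANTCA were in the OSGIN1 window alone (7.71% of all), overlapping the element shown above, and the E-box CACGTG in that of IGF2BP3 alone (7.26% of all). The GC box GGGCGG was found for FSD1L, OSGIN1, POPDC3, RGS17 and STXBP6, and in 45% of all windows. The cAMP response element TGACGTCA and the composite letters TGATGNAA were in none of the 11 windows, and in 1.85 and 3.62% of all. The STXBP6 window is shown because the element occurs there on both strands in a palindrome, in capitals, at -50 from the start.
STXBP6, chr14:25050148-25050397 (GRCh38.p14, RefSeq), minus strand: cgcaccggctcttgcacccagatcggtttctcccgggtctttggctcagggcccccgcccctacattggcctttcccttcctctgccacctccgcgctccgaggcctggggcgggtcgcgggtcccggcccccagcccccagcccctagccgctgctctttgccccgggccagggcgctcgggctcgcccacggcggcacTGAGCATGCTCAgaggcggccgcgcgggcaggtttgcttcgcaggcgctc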

How the data were processed

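RNA from 12 libraries of Hs 578T cells was sequenced. Per the submitters' processing notes, reads were aligned to hg19 with TopHat2 2.1.0 and counted with HTSeq 0.11.2, and by the methods counting disregarded strand. The annotation version is not given in the sources used here. The authors deposited raw counts per gene symbol. Of all reads, 15.89 to 17.07% lay outside genes, were ambiguous or did not map to a single place. The analysis removed 523 rRNA genes, normalized by TMM and kept genes whose mean reached 10 normalized counts in either group. Each of 4 comparisons of 3 against 3 libraries was tested with edgeR 4.0.16 (quasi-likelihood, Benjamini-Hochberg over all genes tested, R 4.3.3), and DEGs were called at the authors' limits, 0.1 for the adjusted p and 0.32 for the size of the log2FC. An exact permutation test of 3 against 3 cannot go below 0.1, so none is given. Normalized counts are on the scale of the mean library, and SEs are those of the fitted log2FC. Replicate pairs differed by more than sampling noise (chi-square per degree of freedom 2.22 to 13). The interaction was tested on 12 libraries. The procedure was tested on simulated data.

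The 10 genes and all lists were chosen with earlier results of these data known, and 1 relative is not reported here. Named genes were the 10, every relative that was a DEG, the 2 NRF2 targets with the largest log2FC in each direction of each comparison, and the genes of highest r (3 for TRIM16, TRIM16L and OSGIN1, 1 for the others). OSGIN2, FSD1, POLR3GL, BVES and ALB, relatives that were no DEGs, STXBP5, POLR3A, AKR1C1 and the marker genes were named outside this rule, after their values were seen. Alternatives were DESeq2 1.42.0 (size factors and Wald test), library size only, filterByExpr, no filter, all 12 libraries, the replicate block, other thresholds, rRNA genes kept and leaving out each library. Positions are those of GENCODE 44 on GRCh37. Plots were made with matplotlib 3.10.9 in Python 3.11.15.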

Additional observations from a re-analysis of the deposited data

Results flagged for a closer look

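The response to Cyss deprivation differed between the cell kinds for 3 of the 12 family relatives tested, by edgeR's interaction test on all 12 libraries (15.1% of all genes passed its adjusted p of 0.1). The difference, NRF2 response minus GFP response, was 0.33 on the log2 scale for IGF2BP2 (SE 0.0718, edgeR adjusted p = 0.00789) and 0.66 for RGS20 (SE 0.183, edgeR adjusted p = 0.0309). It was 0.21 for STXBP5 (SE 0.0549, edgeR adjusted p = 0.0249), tomosyn, which like STXBP6 binds syntaxin. STXBP5 went from a mean of 3403 to 3126 in GFP cells when Cyss was removed, and from 3475 to 3689 in NRF2 cells.

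RGS17 moved in opposite directions, with no overlap of the libraries in either cell, and its log2FC in NRF2 cells was 0.44 where that of GFP cells was -0.41. The GFP groups were separated only by 209 against 205, and 13.1% of all genes had no overlap in that direction. The fall in GFP cells was outside the limit on adjusted p, and was -0.24 without GFP with Cyss replicate 1. The difference of 0.86 (SE 0.188) in the fit of the interaction is given as a description, since values in GFP and in NRF2 cells served to choose the gene.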

How the results depend on the processing

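In NRF2 cells without against with Cyss, none of the 160 refitted values of the 10 genes under 16 alternatives changed its call. Leaving out a library moved POLR3G between -0.13 and 0.08 and FSD1L between -0.05 and 0.13, across 0. With no fold threshold, the DEGs were 16 NRF2 targets down, 2 relatives and 1 RNA polymerase III subunit in GFP cells without Cyss, and 23 targets down, 1 target up and 5 subunits in NRF2 cells. For NRF2 with Cyss that setting gave 24 targets up and made the 0.21 of TRIM16 a DEG, and without Cyss it gave 3 targets down, 4 relatives and 3 subunits. For NRF2 without Cyss, DESeq2's Wald test and an adjusted p under 0.05 gave 0 relatives, against 1, and scaling by library size only gave 0 subunits. Leaving out a library gave 0 to 2 relatives and 0 to 1 subunits there, 0 to 1 targets up in NRF2 cells, and a TRIM16 interaction between -0.29 and -0.13. For TRIM16L the interaction was -0.52, and -0.44 without GFP without Cyss replicate 1. Over all expressed genes, deviations of libraries with the same replicate number had correlations between -0.05 and 0.14, which cannot decide whether samples were paired. With the replicate block, TRIM16 in NRF2 cells had a log2FC of -0.64 (edgeR adjusted p = 1.8e-06). In GFP cells without Cyss, 9 of the 10 genes were then past the limits in the downward direction, against 8. For the interaction 3 were past the limit upward and 2 downward, against 1 and 1. The cause of these shifts was not tested. Depth limits the lower genes, with 104 reads in the shallowest AFP library.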
